A study of Mus musculus with 17 samples.

Results

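Neurogenesis and cell division in the adult mouse hippocampus were followed through 9 genes chosen by name, namely Dcx, Neurod1, Eomes, Sox11, Sox2, Igfbpl1, Draxin, Mki67 and Top2a. They are 9 of the 55450 genes counted in every library, and all 9 were among the 17615 genes that passed the filter on low counts. RNA was sequenced from the hippocampi of adult mice, with 5 libraries labelled control sgLacZ, 6 labelled epileptic sgLacZ and 6 labelled epileptic sgKcna1. The study asked whether CRISPR activation of Kcna1, which encodes a potassium channel subunit that limits neuronal firing, changes gene expression in chronic temporal lobe epilepsy. In this method a guide RNA brings a catalytically dead Cas9, fused to a transcriptional activator, to the promoter of the chosen gene.

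Per the study's methods, epilepsy was produced by kainic acid, a glutamate receptor agonist, placed in the right amygdala, and the control mice were sham controls. All groups received adeno-associated viruses in the right ventral hippocampus and a diet with doxycycline, which switches on the activator. The control sgLacZ and epileptic sgLacZ mice therefore also carried the activator, with a guide to a bacterial gene that mice lack. No group of control mice with sgKcna1 was analysed here. The transactivator that turns on the dead Cas9 in the presence of doxycycline was driven by a Camk2a promoter, which favours excitatory neurons, whereas the RNA came from all cells of the tissue. The methods name C57BL/6J mice of both sexes for this model. Nothing in the labels says whether the libraries of a group came from separate animals, so P values measure the spread between these samples.

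New granule neurons arise throughout life in the subgranular zone of the dentate gyrus. Radial glia-like stem cells, which share Sox2 with astrocytes, give rise to intermediate progenitors marked by Eomes, and these divide and become neuroblasts and immature neurons that switch on Neurod1, Sox11, Igfbpl1 and Dcx before they mature. Mki67 and Top2a are produced in the later phases of the cell cycle and mark cells that divide, whatever their type. In rodents, seizures are known to alter the division of progenitors and the placement of newborn granule cells. Newborn cells are a small share of the hippocampus and some of these genes are also read in mature neurons or glia. In bulk tissue fewer cells of a type and less RNA per cell cannot be told apart.

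The libraries held between 11839240 and 28311328 reads in genes, and 3 reads corresponded to 0.106 to 0.253 CPM (counts scaled to the same total in every library). Unmapped reads made up 19.5 to 27.7% in control sgLacZ, 11.0 to 24.1% in epileptic sgLacZ and 19.1 to 41.5% in epileptic sgKcna1 libraries. The highest value, 41.5%, was that of epileptic sgKcna1 replicate 12, which also had the fewest reads. This library was the highest or the lowest of its group for all 9 members, and for 69.4% of the 17615 genes tested, so results that rest on it are also given without it. Epileptic sgLacZ replicates 4 and 5 were the highest or the lowest of their group for 60.1% and 59.5% of these genes. In 6 of 17 libraries Xist, which is produced from the inactive X chromosome of females, and Y-linked genes were both above 2 CPM. By the higher of these levels, 2 of 5 control, 4 of 6 epileptic sgLacZ and 2 of 6 epileptic sgKcna1 libraries were called female. In the 6 libraries with both, the call is uncertain. Summed levels of hippocampal field markers were 323 to 453, 352 to 436 and 272 to 395 CPM over 6 genes of dentate granule cells in control sgLacZ, epileptic sgLacZ and epileptic sgKcna1, 574 to 615, 577 to 695 and 498 to 696 CPM over 4 genes of CA1, 135 to 162, 143 to 187 and 129 to 175 CPM over 4 genes of CA2 and 182 to 233, 160.4 to 183 and 109.7 to 258 CPM over 3 genes of CA3. Of markers of neocortex, Lamp5 ran from 32.3 to 39.8 CPM in control, 29.6 to 38.2 CPM in epileptic sgLacZ and 18.1 to 104 CPM in epileptic sgKcna1, where replicate 12 was the lowest. Rorb ran from 14.6 to 23.0, 14.6 to 20.5 and 16.7 to 31.2 CPM in the same order of groups, and Cux2 had a log2 fold change of 0.66 in epileptic sgKcna1 against control and 0.12 against epileptic sgLacZ. None of Lamp5, Rorb and Cux2 passed by edgeR in the treated group against either other group, but Lamp5 and Rorb had an unadjusted P under 0.05 against epileptic sgLacZ and all 3 had one against control, each higher in the treated group, and the part of cortical tissue in the levels of the members was not tested. Striatum (6 genes), thalamus (3 genes) and Cajal-Retzius cell markers (5 genes) had summed levels that overlapped between each pair of groups. Thalamus markers were highest in epileptic sgLacZ replicate 4, at 105.7 CPM where its group's median was 43.8 CPM. They were next highest in epileptic sgKcna1 replicate 12, at 80.3 CPM where its group's median was 43.1 CPM. The part of thalamic tissue in the levels of the members was not tested. Choroid plexus markers, 7 genes that include Ttr, spanned 1205 to 12555, 4445 to 11478 and 293 to 7851 CPM. Kcna1 itself was at 25.5 to 44.0 CPM in control sgLacZ, 16.9 to 56.7 CPM in epileptic sgLacZ and 13.9 to 133 CPM in epileptic sgKcna1 libraries. Its highest value was that of replicate 12, and without it the treated libraries averaged 19.3 ± 6.16 CPM (SD, n = 5), against 30.1 ± 14.5 CPM (SD, n = 6) in epileptic sgLacZ. With all libraries the log2 fold change of Kcna1 between these groups was 0.32 (95% interval -0.66 to 1.31, edgeR adjusted P = 0.706). The study reported more Kcna1 by quantitative PCR in injected than in contralateral hippocampi of sgKcna1 mice, and no clear increase by RNA sequencing.

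In epileptic sgLacZ compared with control sgLacZ hippocampi, which asks how chronic epilepsy differs from control, no member passed an adjusted P of 0.05 in edgeR's quasi-likelihood test (0 of 9, smallest edgeR adjusted P = 0.0684, for Neurod1), where 11.0% of all genes tested passed, 7.26% higher and 3.76% lower. Neurod1 and Sox2 had an unadjusted edgeR P under 0.05, that is 2 of 9 members, where 34.7% of all genes did. DESeq2 called 1 member, Neurod1, and limma voom called 3, Neurod1, Sox11 and Sox2, against 20.9% and 41.4% of the genes each tested. All of these were lower in epileptic sgLacZ. The largest fold difference was that of Draxin, which was higher. Taking all members, 4 were higher and 5 lower, with a median log2 fold change of -0.20 against 0.02 for all genes tested. Sox2 was the only member whose groups did not overlap, 1 of 9, where 4.39% of all genes had groups that did not. This separation of Sox2 holds on CPM with the normalization factors and not on reads in genes alone.

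**Figure D1:**
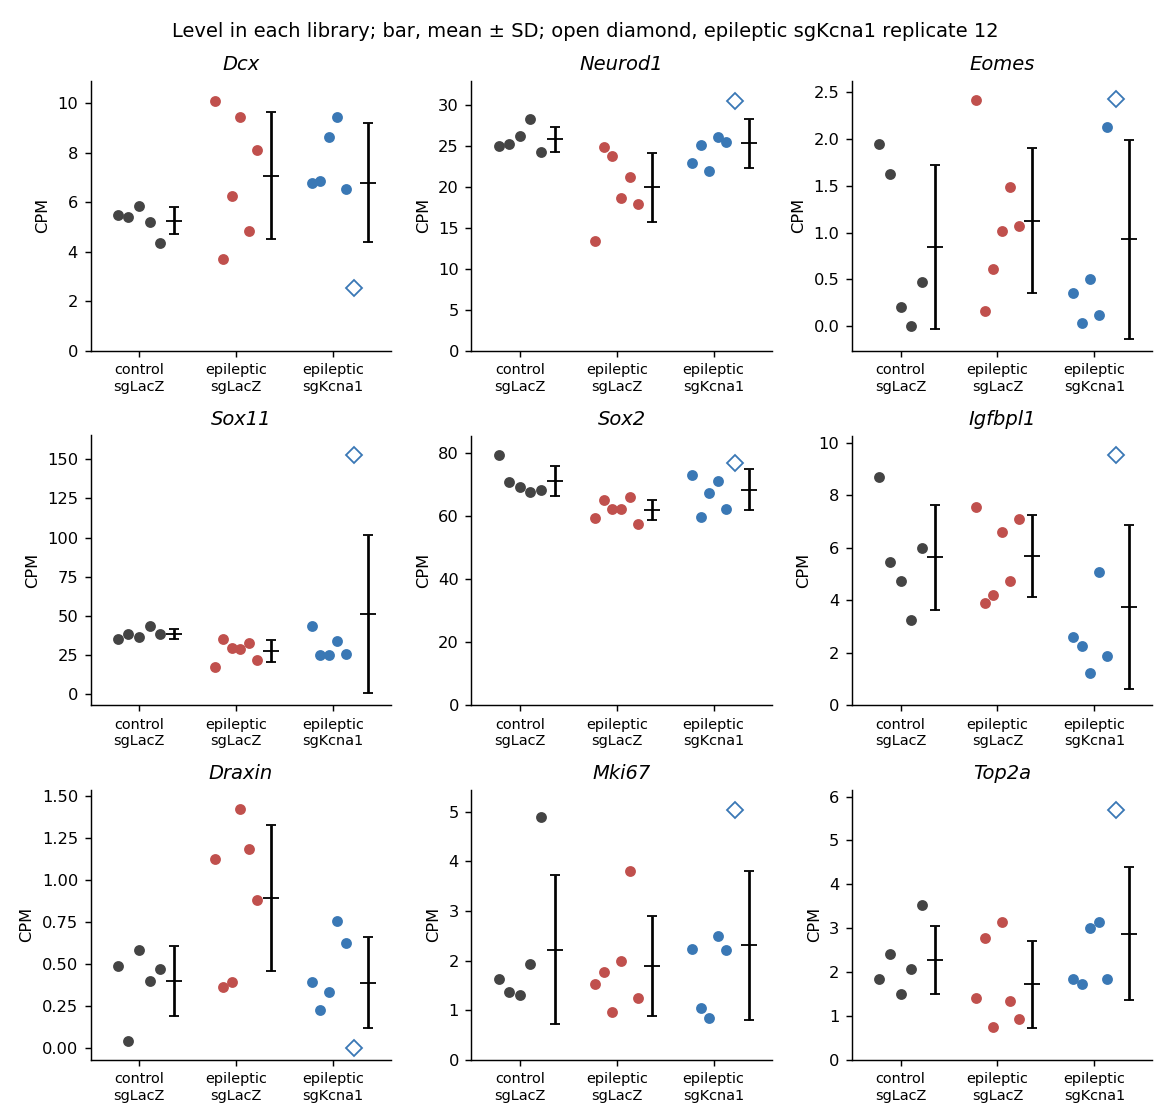
Level of each member in CPM (vertical axes, linear) in every library of the 3 groups, with the mean and SD of each group as a black bar and epileptic sgKcna1 replicate 12 as an open diamond. Sox2 in the 6 epileptic sgLacZ libraries lies below all 5 control libraries, Draxin reaches 1.42 CPM in epileptic sgLacZ against 0.585 CPM at most in control, and replicate 12 stands apart in the Sox11 panel at 153 CPM.

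Sox2 (chr3:34649995-34652461, coordinates of all genes from RefSeq on GRCm38.p6) encodes a transcription factor that keeps neural stem cells undifferentiated and is also present in astrocytes. Its level was 79.2, 70.8, 69.2, 67.6 and 68.2 CPM in control replicates 13, 14, 15, 16 and 23. In epileptic sgLacZ replicates 4 to 9 it was 59.5, 65.0, 62.2, 62.1, 65.9 and 57.4 CPM, so the highest epileptic library lay just below the lowest control. By reads in genes alone these groups overlap, since epileptic replicate 8 had 1332 Sox2 reads of 19942027 and control replicate 16 had 1014 of 15365455. In log2 units the difference was -0.20 (SE 0.08, edgeR adjusted P = 0.101). In epileptic sgKcna1 libraries Sox2 ran from 59.7 to 76.9 CPM with a median of 69.2 CPM and overlapped both other groups. Its log2 fold change was 0.14 against epileptic sgLacZ (95% interval -0.02 to 0.30, edgeR adjusted P = 0.310) and -0.06 against control (95% interval -0.23 to 0.12, edgeR adjusted P = 0.885). The 9 astrocyte markers summed to 3078 to 3459, 3281 to 4016 and 3388 to 3770 CPM in control, epileptic sgLacZ and epileptic sgKcna1 libraries, and the part of astrocytes in the level of Sox2 was not tested.

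Eomes (chr9:118478186-118486132), also called Tbr2, encodes the T-box factor that defines intermediate progenitors, and it was read at very low levels. It had at most 3 reads in 4 of 17 libraries and 0 to 71 reads over all. Levels ran from 0 to 1.95 CPM in control, 0.157 to 2.42 CPM in epileptic sgLacZ and 0.0373 to 2.43 CPM in epileptic sgKcna1, so each group spread over more than the differences between group means. The log2 fold change was 0.40 in epileptic sgLacZ against control (95% interval -1.41 to 2.21) and -0.35 in epileptic sgKcna1 against epileptic sgLacZ (95% interval -2.09 to 1.38), and neither passed by edgeR. Within the control group replicates 13 and 14 held 36 and 39 reads and replicate 16 held 0, and the cause of this spread was not tested. Eomes overlaps Gm33408, a long non-coding RNA gene, and its reads summed over both strands were 1.44 times the unstranded count, which leaves its level uncertain.

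Neurod1 (chr2:79452637-79456636) encodes a bHLH transcription factor needed for newborn granule cells to survive and mature, and it stays on in some mature neurons. In control libraries it lay between 24.2 and 28.2 CPM, a mean of 25.8 ± 1.53 CPM (SD, n = 5). In epileptic sgLacZ replicates 4 to 9 it was 13.4, 24.8, 23.7, 18.6, 21.2 and 17.8 CPM, so 5 of the 6 lay below every control and replicate 5 lay within the control range. The log2 fold change was -0.37 (SE 0.13, edgeR adjusted P = 0.0684), and it passed without epileptic sgLacZ replicate 5 (-0.44, edgeR adjusted P = 0.0183) and without epileptic sgKcna1 replicate 12 (-0.38, edgeR adjusted P = 0.0356), settings in which 31.3% and 27.1% of all genes passed. It did not pass without any other single library. The difference was smallest, -0.28, without epileptic sgLacZ replicate 4 (edgeR adjusted P = 0.143), the library of lowest Neurod1. Markers of neurons in general, the 4 genes Rbfox3, Snap25, Map2 and Syt1, summed to 4183 to 4453 CPM in control and 3719 to 4108 CPM in epileptic sgLacZ, so that every epileptic library lay below every control, and to 4055 to 4696 CPM in epileptic sgKcna1. These sums include the normalization factors (1.04 in epileptic sgLacZ replicate 4, 0.962 in control replicate 13), without which control and epileptic sgLacZ overlap. Of these 4 genes 0 passed by edgeR in epileptic sgLacZ against control and 2, Rbfox3 and Snap25, had an unadjusted P under 0.05, both lower, and their part in the levels of Neurod1 and Sox11 was not tested. In epileptic sgKcna1 replicates 1, 2, 3, 10, 11 and 12 Neurod1 was 22.9, 25.0, 21.9, 26.1, 25.4 and 30.4 CPM, above the mean of epileptic sgLacZ in all 6 and overlapping the controls. Against epileptic sgLacZ the log2 fold change was 0.34 (SE 0.13, edgeR adjusted P = 0.214), and against control -0.03 (95% interval -0.31 to 0.25, edgeR adjusted P = 0.969). The reads of Neurod1 summed over both strands were 1.13 times its unstranded count, and with the summed counts the epileptic difference was -0.24 (edgeR adjusted P = 0.149).

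Dcx (chrX:143855842-143933396) encodes doublecortin, the microtubule-associated protein used to stain migrating neuroblasts and immature granule cells. Control libraries were close together, at 5.47, 5.41, 5.85, 5.20 and 4.36 CPM in replicates 13, 14, 15, 16 and 23. Epileptic sgLacZ libraries were spread far more widely, at 10.1, 3.71, 6.24, 9.44, 4.85 and 8.12 CPM in replicates 4 to 9, with 4 libraries above all controls and 1 below all of them. The treated libraries lay at 6.77, 6.87, 8.61, 9.43 and 6.54 CPM in replicates 1, 2, 3, 10 and 11, all above every control, and at 2.52 CPM in replicate 12. Tested against control, Dcx differed by 0.43 on the log2 scale in epileptic sgLacZ (SE 0.28, edgeR adjusted P = 0.279) and by 0.38 in epileptic sgKcna1 (SE 0.28, edgeR adjusted P = 0.796), the latter 0.53 without replicate 12 (edgeR adjusted P = 0.247). The difference of epileptic sgLacZ was 0.30 without its replicate 4 (edgeR adjusted P = 0.509) and 0.56 without its replicate 5 (edgeR adjusted P = 0.112). Between epileptic sgKcna1 and epileptic sgLacZ the log2 fold change of Dcx was -0.05 (95% interval -0.60 to 0.50, edgeR adjusted P = 0.917) and 0.10 without treated replicate 12.

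Sox11 (chr12:27334268-27342718) encodes a SoxC transcription factor of committed neuroblasts that acts on the Dcx gene and is turned off as granule cells mature. In control libraries it lay between 35.0 and 43.2 CPM with a median of 38.0 CPM. In epileptic sgLacZ replicates 4 to 9 it was 17.2, 35.2, 29.3, 28.4, 32.4 and 21.3 CPM, so only replicate 5 reached the control range. The treated group held 1 library far from the rest, with 43.3, 24.9, 24.7, 33.9 and 25.2 CPM in replicates 1, 2, 3, 10 and 11 and 153 CPM in replicate 12. Its mean was 50.8 ± 50.6 CPM (SD, n = 6) with and 30.4 ± 8.20 CPM (SD, n = 5) without that library. All groups share 1 estimate of the spread, and the log2 fold change of epileptic sgLacZ against control was -0.48 (SE 0.39, edgeR adjusted P = 0.387) with all libraries and -0.49 (SE 0.18, edgeR adjusted P = 0.0481) without replicate 12, a setting in which 27.1% of all genes passed. It was -0.38 without epileptic sgLacZ replicate 4 (edgeR adjusted P = 0.572) and -0.57 without epileptic sgLacZ replicate 5 (edgeR adjusted P = 0.306). Against epileptic sgLacZ the treated group had a log2 fold change of 0.89 (edgeR adjusted P = 0.230), and of 0.15 without replicate 12 (edgeR adjusted P = 0.653).

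Igfbpl1 (chr4:45809507-45826827) encodes a secreted protein related to the insulin-like growth factor binding proteins and marks neuroblasts. It lay at 3.27 to 8.71 CPM in control and 3.92 to 7.56 CPM in epileptic sgLacZ, with a log2 fold change of 0.02 (95% interval -0.82 to 0.85). In epileptic sgKcna1 replicates 1, 2, 3, 10, 11 and 12 it was 2.59, 2.24, 1.22, 5.07, 1.87 and 9.52 CPM, so 4 of the 6 treated libraries lay below every sgLacZ library and replicate 12 above all of them. Against epileptic sgLacZ its log2 fold change was -0.64 (SE 0.39, edgeR adjusted P = 0.339) with all libraries and -1.14 (SE 0.32, edgeR adjusted P = 0.251) without replicate 12. Between treated and control mice it had the largest fold difference of the members, -0.63 (SE 0.41, edgeR adjusted P = 0.771), and -1.13 without replicate 12 (edgeR adjusted P = 0.119), a setting in which 0.0795% of all genes passed. It was on the lower side in treated mice against either sgLacZ group under all 25 alternative settings, and past the threshold in none of them.

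Draxin (chr4:148098437-148131139) encodes a secreted guidance protein that repels growing axons. It was read at very low levels, with 0 to 35 reads a library and at most 3 reads in 2 libraries. Control libraries held 0.0416 to 0.585 CPM. Epileptic sgLacZ replicates 4 to 9 held 1.12, 0.366, 0.395, 1.42, 1.19 and 0.882 CPM, so 4 of the 6 were above every control. Treated libraries held 0 to 0.757 CPM with a median of 0.364 CPM and overlapped both other groups. The log2 fold change was 1.18 in epileptic sgLacZ against control (SE 0.58, edgeR adjusted P = 0.157), -1.16 in epileptic sgKcna1 against epileptic sgLacZ (SE 0.55, edgeR adjusted P = 0.258) and 0.03 in epileptic sgKcna1 against control (95% interval -1.22 to 1.28, edgeR adjusted P = 0.994). Replicate 12 had no Draxin read, and without it the difference between the epileptic groups was -0.96 (edgeR adjusted P = 0.356).

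Mki67 (chr7:135689784-135716450) and Top2a (chr11:98992947-99024199) encode the chromosome-coating protein Ki-67 and the DNA topoisomerase that untangles sister chromatids. Promoters of such genes are known to carry CCAAT boxes, bound by NF-Y, and a cell cycle homology element, spelled TTTGAA or TTCGAA, which keeps them silent in resting cells. The 250 bases before a start annotated by RefSeq are shown because both genes carry these letters. These starts lie inside the outer bounds of the genes given above, so that the last 71 bases printed for Mki67 and the last 10 for Top2a fall within those bounds. Capitals mark each match on either strand of GRCm38.p6 (RefSeq), and a marked match is a match of letters and not a measured site. Both genes lie on the minus strand, with windows at chr7:135716380-135716629 for Mki67 and chr11:99024190-99024439 for Top2a.
Mki67: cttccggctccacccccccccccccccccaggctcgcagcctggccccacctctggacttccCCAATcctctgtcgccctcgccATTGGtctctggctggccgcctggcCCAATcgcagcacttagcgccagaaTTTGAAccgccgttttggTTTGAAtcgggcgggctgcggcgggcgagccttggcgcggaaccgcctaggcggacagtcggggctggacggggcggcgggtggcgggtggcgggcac
Top2a: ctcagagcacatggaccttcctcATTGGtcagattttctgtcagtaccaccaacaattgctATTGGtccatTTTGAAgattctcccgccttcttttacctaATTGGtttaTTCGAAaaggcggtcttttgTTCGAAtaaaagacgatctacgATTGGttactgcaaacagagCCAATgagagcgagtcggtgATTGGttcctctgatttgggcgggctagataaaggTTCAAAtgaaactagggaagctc

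The Mki67 window held 3 CCAAT and 2 TTTGAA matches, and the Top2a window 6 CCAAT, 2 TTTGAA and 2 TTCGAA matches. Of 32851 promoter windows of the same length, 33.8% held CCAAT, 16.0% held TTTGAA, 1.34% held TTCGAA and 2.79% held at least 3 CCAAT matches. RefSeq gave a window for 8 of the 9 members, all but Igfbpl1, and besides Mki67 and Top2a that of Sox11 held 1 TTTGAA match.

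Mki67 was at 1.30 to 1.93 CPM in control replicates 13 to 16 and at 4.89 CPM in replicate 23. In epileptic sgLacZ it was at 0.966 to 1.99 CPM in 5 libraries and at 3.81 CPM in replicate 8. In epileptic sgKcna1 it ran from 0.833 to 5.04 CPM with a median of 2.22 CPM, and the highest library was replicate 12. Each group thus held 1 library well above its others, and the groups overlapped. The log2 fold change was -0.23 in epileptic sgLacZ against control (95% interval -1.19 to 0.73, edgeR adjusted P = 0.750), 0.26 in epileptic sgKcna1 against epileptic sgLacZ (95% interval -0.66 to 1.18, edgeR adjusted P = 0.747) and 0.03 in epileptic sgKcna1 against control (95% interval -0.93 to 1.00, edgeR adjusted P = 0.989). The first of these was 0.28 without control replicate 23, and the second was -0.10 without treated replicate 12.

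Top2a was at 1.51 to 3.54 CPM in control libraries. In epileptic sgLacZ replicates 4 to 9 it was at 1.40, 2.77, 0.747, 3.13, 1.34 and 0.928 CPM, so 4 of those 6 lay below every control. In treated libraries it was at 1.72 to 3.14 CPM in 5 libraries and at 5.69 CPM in replicate 12. Its log2 fold change was -0.40 in epileptic sgLacZ against control (SE 0.39, edgeR adjusted P = 0.485) and 0.71 in epileptic sgKcna1 against epileptic sgLacZ (SE 0.38, edgeR adjusted P = 0.292), the latter 0.41 without replicate 12 (edgeR adjusted P = 0.545). Over all 17 libraries Mki67 and Top2a had a Pearson r of 0.53 (permutation P = 0.0263, adjusted over 36 pairs of members 0.0790) and a Spearman rho of 0.51 (permutation P = 0.0370, adjusted 0.166). Without the 2 libraries farthest out in Mki67, control replicate 23 and epileptic sgKcna1 replicate 12, r was 0.20.

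**Figure D2:**
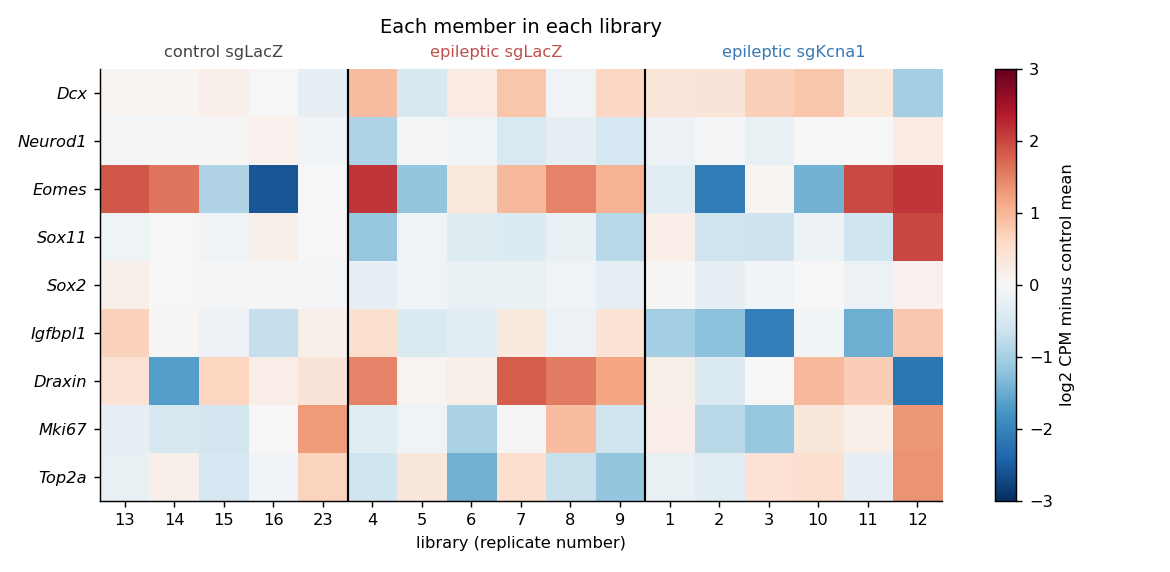
Each member (vertical axis) in each of the 17 libraries (horizontal axis, by replicate number), as log2 CPM minus the mean of the 5 control libraries, red above and blue below. The epileptic sgLacZ replicates 4, 7 and 9 are high in Dcx and Draxin and low in Neurod1 and Sox11, and epileptic sgKcna1 replicate 12 is low in Dcx and Draxin and high in Sox11, Mki67 and Top2a.

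In epileptic sgKcna1 compared with epileptic sgLacZ hippocampi, which asks how the guide to Kcna1 changes epileptic tissue, no member passed the test (0 of 9, smallest edgeR adjusted P = 0.214, for Neurod1), and 0.00% of all genes tested did. DESeq2 and limma voom also called 0 of 9 members, where they called 0.592% and 0.0681% of all genes. Neurod1 and Sox11 on the higher side and Draxin on the lower had an unadjusted edgeR P under 0.05, that is 3 of 9, where 19.2% of all genes did, 8.69% higher and 10.5% lower. No member had groups that did not overlap, where 0.483% of all genes did. The median log2 fold change of the members was 0.14, against -0.01 for all genes. For epileptic sgKcna1 against control sgLacZ, edgeR, DESeq2 and limma voom each called 0 of 9 members, where they called 0.00%, 0.186% and 0.403% of all genes. In that comparison 0 of 9 members had an unadjusted edgeR P under 0.05, where 6.77% of all genes did (4.29% higher and 2.48% lower), and 0 of 9 had groups that did not overlap, where 1.14% did. The 3 comparisons share libraries, so a member's values in them are not independent.

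**Figure D3:**
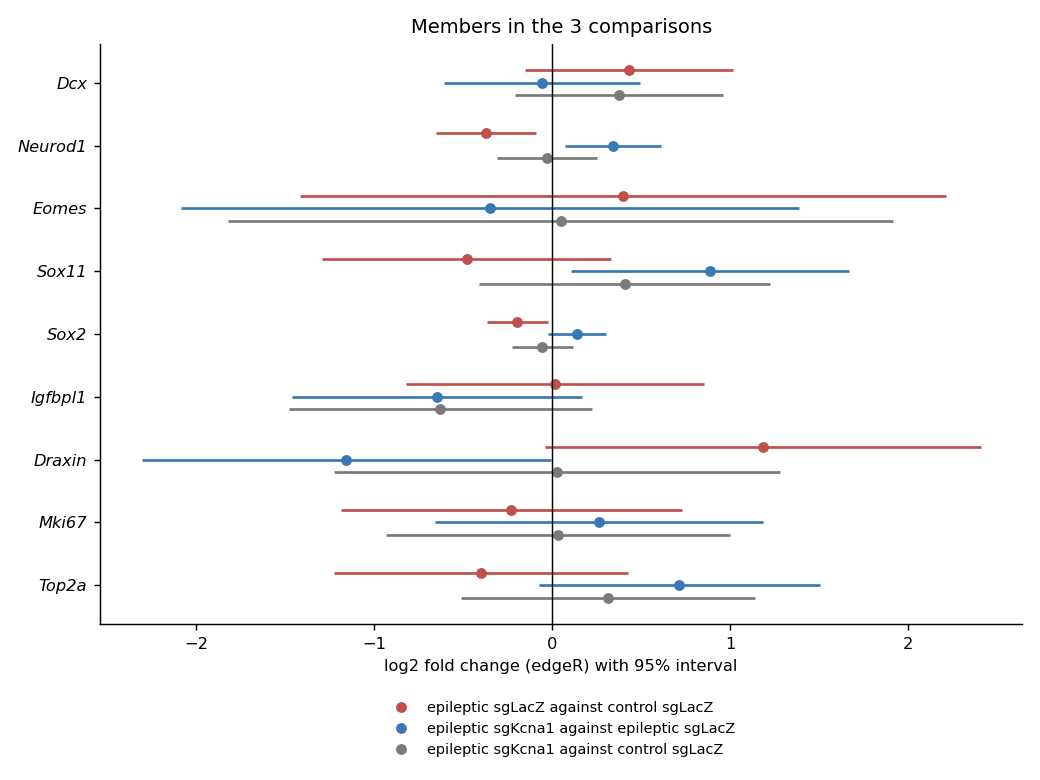
Log2 fold change of each member (horizontal axis) with its 95% interval from edgeR in the 3 comparisons, with a line at 0. Intervals that exclude 0 belong to Neurod1 and Sox2 in epileptic sgLacZ against control and to Neurod1, Sox11 and Draxin in epileptic sgKcna1 against epileptic sgLacZ, and none of these passed after adjustment over 17615 genes.

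Several members went together with a technical measure, the percent of unmapped reads. The share of all tested genes that did so was not measured, so whether this is particular to the members cannot be told. Over the 17 libraries this percent had a Pearson r of -0.78 with Dcx (log2 CPM, permutation P = 0.00029, adjusted over 9 members 0.00087) and a Spearman rho of -0.69 (permutation P = 0.00271, adjusted 0.0122). With Sox2 r was 0.75 (permutation P = 1.70e-04, adjusted 0.00087) and rho 0.75 (permutation P = 0.00089, adjusted 0.00801). With Sox11 r was 0.88 (permutation P = 0.00021, adjusted 0.00087) and rho 0.60 (permutation P = 0.0126, adjusted 0.0379). Dcx was thus lower, and Sox2 and Sox11 higher, where more reads were unmapped. Without the 2 libraries of most extreme percent, epileptic sgLacZ replicate 4 and epileptic sgKcna1 replicate 12, r was -0.50 for Dcx, 0.74 for Sox2 and 0.49 for Sox11. With Neurod1 r was 0.72 (permutation P = 0.00389, adjusted 0.00700) and rho 0.47 (permutation P = 0.0621, adjusted 0.0932), and with Draxin r was -0.76 (permutation P = 0.00049, adjusted 0.00110) and rho -0.55 (permutation P = 0.0252, adjusted 0.0567), so both passed by r and not by rho. With the group means removed r was -0.84 for Dcx, 0.70 for Sox2, 0.86 for Sox11, 0.63 for Neurod1 and -0.68 for Draxin, and without replicate 12 as well it was -0.65, 0.60, 0.55, 0.60 and -0.39. Top2a passed by r alone (r 0.61, permutation P = 0.0112, adjusted 0.0168), and Mki67 (r 0.47), Eomes (0.17) and Igfbpl1 (0.14) did not pass. With this percent as a covariate the log2 fold change of epileptic sgLacZ against control was -0.06 for Dcx, -0.26 for Neurod1, -0.13 for Sox2, 0.00 for Sox11 and 0.62 for Draxin.

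**Figure D4:**
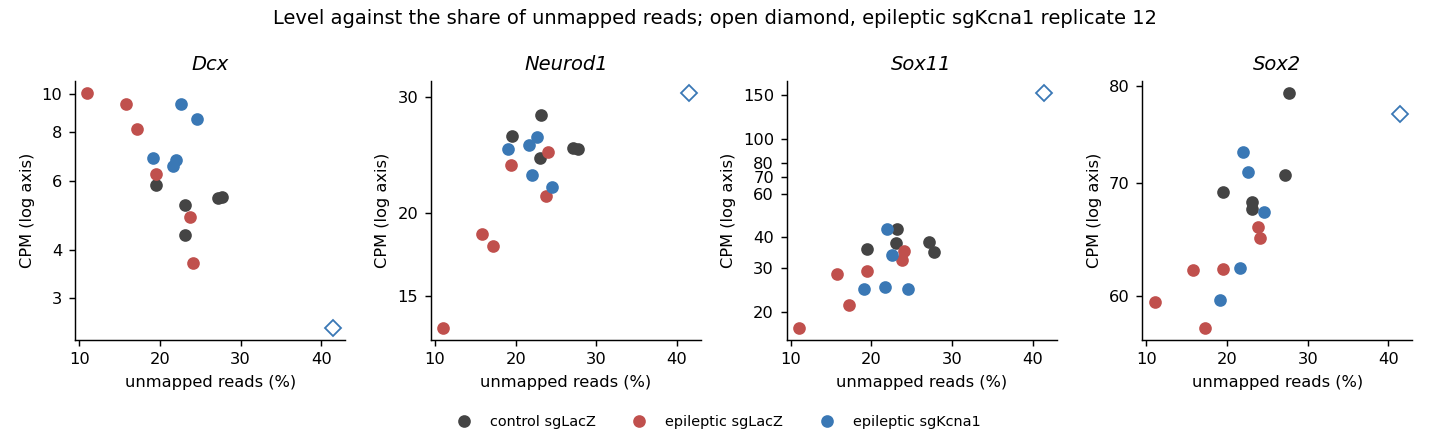
Level in CPM (vertical axes, logarithmic) of Dcx, Neurod1, Sox11 and Sox2 against the percent of unmapped reads in the 17 libraries, coloured by group, with epileptic sgKcna1 replicate 12 as an open diamond at 41.5%. Dcx is lower and the other 3 genes are higher where more reads were unmapped, and epileptic sgLacZ replicate 4, at 11.0%, has the highest Dcx and the lowest Neurod1 and Sox11.

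Among the 36 pairs of members, 2 passed a permutation test by both measures after adjustment. Sox11 and Sox2 had r 0.71 (permutation P = 0.00034, adjusted 0.00612) and rho 0.79 (permutation P = 0.00031, adjusted 0.0112). Dcx and Sox11, although both mark immature neurons, ran in opposite directions, with r -0.79 (permutation P = 0.00026, adjusted 0.00612) and rho -0.71 (permutation P = 0.00214, adjusted 0.0385). Without the 2 libraries farthest out on the first gene of each pair r was 0.73 and -0.65, and with the group means removed it was 0.67 and -0.82. Among the genes whose levels followed Dcx most closely, by Spearman rho over log2 CPM of all 17 libraries among 14165 genes with a mean of at least 1 CPM, were Ctnna2 (rho 0.92), Hip1r (rho 0.90), Scfd1 (rho 0.90) and Crot (rho 0.90). Their r with Dcx after removal of group means was, in the same order, 0.79, 0.84, 0.90 and 0.89. Among those that followed Mki67 were Plpp4 (rho 0.81), Gm10801 (rho 0.77), Prrx1 (rho 0.75) and Dach2 (rho 0.75), with r of 0.75, 0.80, 0.74 and 0.73 after removal of group means, and none of these is on the lists of mitosis or replication genes. All these likenesses are over libraries that also differ in depth and in unmapped reads.

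Further genes linked to neurogenesis and cell division were taken from 8 lists, 147 tested genes in all. Of these 11 passed the edgeR test in epileptic sgLacZ against control, 5 higher and 6 lower, where 11.0% of all genes did. The lists are not limited to newborn cells, and the part of mature neurons and glia in their levels was not tested. Of the 18 stem cell genes tested, 1 rose and 2 fell. Fabp7, the brain lipid-binding protein of radial glia, fell from 64.1 ± 16.4 to 31.9 ± 14.6 CPM (log2 fold change -1.01, SE 0.27, edgeR adjusted P = 0.0355). Hopx, which marks quiescent stem cells, fell from 108 ± 16.7 to 64.5 ± 21.4 CPM (log2 fold change -0.74, edgeR adjusted P = 0.0330), and with the strands summed the difference was -0.44 (edgeR adjusted P = 0.0422). The part of astrocytes in the levels of Fabp7 and Hopx was not tested. Notch1, a receptor that maintains the stem cell state, rose (log2 fold change 2.52, edgeR adjusted P = 0.0310), but its strands summed to 3.67 times its unstranded count, and on the summed counts the difference was 0.19 (edgeR adjusted P = 0.407), so its level is uncertain. Id4 and Id3, inhibitors of bHLH factors, had log2 fold changes of -0.31 and -0.41 and did not pass (edgeR adjusted P = 0.159 and 0.176). None of the 7 tested genes of intermediate progenitors passed by edgeR (0 of 7, with 1 at an unadjusted P under 0.05, where 34.7% of all genes were). Ccnd2, a cyclin of dividing progenitors, was at 93.8 ± 6.46 CPM in control and 83.2 ± 9.58 CPM in epileptic sgLacZ.

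Of 23 tested genes of immature neurons, 2 rose and 2 fell. On the lower side were 16 and on the higher 7, where 51.95% of all genes tested were higher. Their median log2 fold change was -0.16 against 0.02 for all genes tested. At an unadjusted edgeR P under 0.05 there were 5 lower and 3 higher. That is 34.8% of the list, near the 34.7% of all genes (15.9% lower and 18.8% higher). The list summed to 3475 CPM in the lowest library and 5415 CPM in the highest, and the part of mature neurons in it was not tested. St8sia2, an enzyme that puts polysialic acid on the adhesion molecule NCAM of young neurons, rose from 0.935 ± 0.251 to 2.36 ± 1.38 CPM (log2 fold change 1.33, SE 0.40, edgeR adjusted P = 0.0438), and Dpysl5, a protein of growing neurites, rose from 14.1 ± 2.76 to 24.0 ± 9.44 CPM (log2 fold change 0.77, edgeR adjusted P = 0.0464). Cd24a, a surface protein of neuroblasts and ependymal cells, fell from 21.2 ± 3.58 to 13.3 ± 1.63 CPM, with all epileptic sgLacZ libraries below all controls (log2 fold change -0.67, edgeR adjusted P = 0.0330). Markers of ependyma, 5 genes, summed to 59.7 to 95.9, 49.4 to 75.5 and 22.9 to 72.5 CPM in control, epileptic sgLacZ and epileptic sgKcna1 libraries, and their part in the level of Cd24a was not tested. Elavl4, a neuronal RNA-binding protein, fell from 121 ± 8.87 to 89.3 ± 13.5 CPM (log2 fold change -0.43, edgeR adjusted P = 0.0391). The part of the summed markers of neurons in general, which did not overlap between these groups on CPM with the normalization factors, in the level of Elavl4 was not tested. Stmn1, the microtubule protein, was at 665 ± 88.1 CPM in control and 433 ± 167 CPM in epileptic sgLacZ and did not pass (edgeR adjusted P = 0.0609).

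Of 29 tested genes of mitosis, 1 fell, Smc4, a condensin subunit that compacts chromosomes, from 20.8 ± 0.926 to 12.6 ± 2.73 CPM with groups that did not overlap (log2 fold change -0.72, SE 0.18, edgeR adjusted P = 0.0333). Of the 29, 21 were on the lower side and 8 on the higher, where 51.95% of all genes tested were higher. Their median log2 fold change was -0.33 against 0.02 for all genes tested. Only 4 of the 29 (13.8%), all lower, had an unadjusted edgeR P under 0.05, fewer than the 34.7% of all genes that did. Summed over the list, mitosis genes were highest in control replicate 23 (113 CPM) and epileptic sgKcna1 replicate 12 (108 CPM), the 2 libraries of highest Mki67. Epileptic sgLacZ replicate 8, next in Mki67, stood at 89.7 CPM, rank 12 of 17. Of 29 tested replication genes, 1 rose, Mcm7, a subunit of the replicative helicase, from 7.07 ± 1.60 to 10.7 ± 1.51 CPM (log2 fold change 0.60, edgeR adjusted P = 0.0445), and with the strands summed the difference was 0.39 and did not pass (edgeR adjusted P = 0.0573). Pcna, the sliding clamp, was at 75.5 ± 3.69 CPM in control and 60.6 ± 11.8 CPM in epileptic sgLacZ (edgeR adjusted P = 0.0667).

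Of 7 tested inhibitors of the cell cycle, 0 passed by edgeR and 0 had an unadjusted P under 0.05, where 11.0% and 34.7% of all genes did. Among 21 niche signals 1 rose, Smo, the transducer of Sonic hedgehog (log2 fold change 0.97, edgeR adjusted P = 0.0450), and among 18 relatives of the members 1 fell, Igfbp4, a binding protein of insulin-like growth factors (log2 fold change -0.51, edgeR adjusted P = 0.0347).

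**Figure D5:**
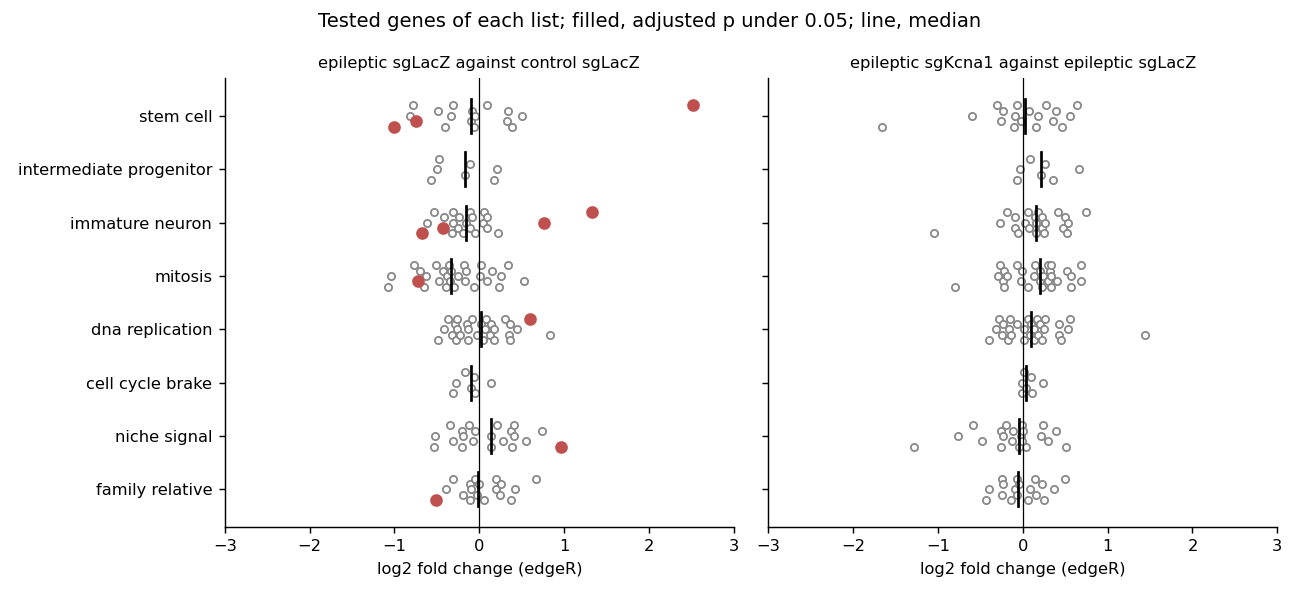
Log2 fold change from edgeR (horizontal axis) of each tested gene of the 8 lists (vertical axis) in epileptic sgLacZ against control sgLacZ and in epileptic sgKcna1 against epileptic sgLacZ, with genes past an adjusted P of 0.05 filled and the list's median as a black line. On the left 11 genes are filled, 5 higher and 6 lower, and on the right none is.

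These 11 calls depended on single libraries. DESeq2 called 18 of the 147 genes, 8 higher and 10 lower, where it called 20.9% of all genes, 11.9% higher and 8.99% lower. Limma voom called 41 of the 147 genes, 13 higher and 28 lower, where it called 41.4%, 21.4% higher and 20.1% lower. With the strands summed edgeR called 12 of the 147 genes, 3 higher and 9 lower, where 14.2% of all genes passed, 9.13% higher and 5.07% lower. Leaving out any 1 of control replicates 13, 14, 16 and 23 or epileptic sgLacZ replicates 4, 7 and 9 left edgeR with 0 calls among the 147, and 0 among all genes. In these fits 23 to 29 of the 147 had an unadjusted P under 0.05, where 4557 to 5793 of the 17519 to 18049 genes tested did. Without epileptic sgLacZ replicate 5 it called 28 of the 147 genes, 9 higher and 19 lower, where 31.3% of all genes passed, 16.0% higher and 15.3% lower. Without epileptic sgKcna1 replicate 12 it called 24 of the 147 genes, 9 higher and 15 lower, where 27.1% did, 15.1% higher and 12.1% lower. With the percent of unmapped reads as a covariate 3 of the 147 passed, where 2.43% of all genes did, and with sex 5, where 2.93% did. Between treated and epileptic sgLacZ mice edgeR called 0 of the 147 (20 at an unadjusted P under 0.05, where 19.2% of all genes were), DESeq2 3 and limma voom 0. DESeq2 called 0.592% and limma voom 0.0681% of all genes there. Without epileptic sgLacZ replicate 5 edgeR called 8 of the 147, where it called 8.54% of all genes, and without epileptic sgKcna1 replicate 11 it called 1, where it called 0.0285%. Between treated and control mice edgeR called 0, DESeq2 2 and limma voom 3, where the last 2 called 0.186% and 0.403% of all genes. At an unadjusted edgeR P under 0.05 there were 19 of the 147 in this comparison, where 6.77% of all genes were. With the percent of unmapped reads as a covariate edgeR called 6, where it called 1.51% of all genes.

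Dtl, an adaptor of the ubiquitin ligase that removes the licensing factor Cdt1 during replication, was the list gene with the smallest edgeR P between treated and epileptic sgLacZ mice. It was at 2.47 ± 0.599 CPM in control (SD, n = 5), 2.26 ± 0.658 CPM in epileptic sgLacZ (SD, n = 6) and 6.12 ± 2.12 CPM in epileptic sgKcna1 libraries (SD, n = 6). Every treated library, at 3.50 to 9.40 CPM, lay above every library of both other groups, which reached 3.20 CPM. The log2 fold change was 1.44 against epileptic sgLacZ (SE 0.26, edgeR adjusted P = 0.127) and 1.31 against control (SE 0.27, edgeR adjusted P = 0.246), so it did not pass in edgeR, whereas DESeq2 gave an adjusted P of 1.65e-04 and 0.00682. Over 25 alternative settings its log2 fold change against epileptic sgLacZ stayed between 1.28 and 1.56, with adjusted P from 1.65e-04 to 0.439, and passed in 3. Dtl was 1 of 147 tested list genes whose treated libraries did not overlap the epileptic sgLacZ libraries, where 0.483% of all genes had groups that did not, so the share in the lists was near that of all genes.

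Cells other than neurons also divide in the hippocampus, and their markers were measured beside the division genes. In control, epileptic sgLacZ and epileptic sgKcna1 libraries, the 10 microglia markers summed to 356 to 407, 320.3 to 529 and 398 to 538 CPM, with the highest value in treated replicate 12. The 7 markers of oligodendrocyte precursors summed to 292 to 317, 299 to 409.9 and 213 to 339.7 CPM, and the 7 markers of endothelium and pericytes to 245 to 307, 200.2 to 311 and 215 to 370.0 CPM, in the same order of groups. Markers of neuroblasts of the subventricular zone or of interneurons, the 6 genes Dlx1, Dlx2, Dlx5, Dlx6, Sp8 and Sp9, summed to 69.8 to 93.5, 53.5 to 97.8 and 44.4 to 100.2 CPM. Their part in the levels of Dcx, Mki67 and Top2a was not tested.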

How the data were processed

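RNA of 17 mouse hippocampus libraries was sequenced after polyA selection. The authors aligned reads with STAR 2.7 to mm10 per the submitters' processing notes, and deposited read counts per gene for unstranded, forward and reverse counting; the annotation release is not given in the sources used here. Reads fell equally on both strands, so the unstranded counts were used, without the 4 summary lines. CPM of Kcna1, the members and the marker and list genes are counts scaled by reads in the tested genes times the TMM factor of the library. The CPM of 3 reads and of Xist and Y-linked genes were scaled by reads in genes alone. Sums over both strands above the unstranded count show reads shared with an overlapping gene. Groups came from the labels.

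Genes were tested with edgeR 4.0.16 (quasi-likelihood, TMM, filterByExpr, Benjamini-Hochberg over 17615 genes, threshold 0.05, two-sided) in R 4.3.3, all libraries in 1 fit. Alternatives were DESeq2 1.42.0, limma 3.58.1 voom with quality weights, DESeq2 size factors in edgeR, no filter, summed strands, unmapped reads or sex as a covariate, only the 2 groups compared, and leaving out each library. Sex was read from Xist and Y-linked genes. Scripts were tested on simulated data. Correlations used 100000 permutations (scipy 1.17.1), two-sided.

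Members and lists were chosen with earlier results of these data known. Genes named from each list were the 2 of highest mean CPM and, in each comparison, those of smallest P in each direction, from which examples are given; other genes that passed were named after their values were seen. Promoters came from RefSeq (GRCm38.p6). Draxin was matched by an older symbol. Of the 5 genes most like Dcx and the 5 most like Mki67, 4 each are given, and the other is not reported here.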

Additional observations from a re-analysis of the deposited data

Results flagged for a closer look

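Each member was examined in each group for a library far from the others (Dixon's test at 95%, nominal rate about 1 in 20), and 5 of 27 were found. The share of all tested genes with such a library was not measured, so whether this count is particular to the members cannot be told. Sox11 in epileptic sgKcna1 replicate 12 was at 153 CPM, next to 43.3 CPM in the nearest library, a gap of 0.855 of the group's range. Top2a in the same library was at 5.69 CPM, next to 3.14 CPM (gap 0.641 of the range). This library also had the highest percent of unmapped reads, 41.5%. Mki67 stood apart in control replicate 23, at 4.89 CPM next to 1.93 CPM (gap 0.823), and in epileptic sgLacZ replicate 8, at 3.81 CPM next to 1.99 CPM (gap 0.639). Sox2 in control replicate 13 was at 79.2 CPM, next to 70.8 CPM (gap 0.723).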

How the results depend on the processing

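No member passed the test in epileptic sgKcna1 against either other group under any of the 25 alternatives. In epileptic sgLacZ against control, 1 passed with DESeq2 and 3 with limma voom, where 20.9% and 41.4% of all genes did. Leaving out single libraries gave 0 to 2, with Neurod1 and Sox11 passing without epileptic sgKcna1 replicate 12 and Neurod1 without epileptic sgLacZ replicate 5, where 27.1% and 31.3% of all genes passed. No paired analysis was possible because the groups share no replicate numbers. Log2 fold changes that changed sign are given next, and their cause was not tested. With the percent of unmapped reads as a covariate, epileptic sgLacZ against control gave -0.0647 for Dcx and 0.0857 for Mki67. Epileptic sgKcna1 against epileptic sgLacZ gave 0.42 for Dcx, -0.0459 for Sox11 and -0.24 for Mki67, and against control -0.0520 for Eomes, -0.0504 for Sox11, -0.00532 for Draxin and -0.15 for Mki67. With sex, Igfbpl1 was -0.0445 in epileptic sgLacZ against control and Eomes -0.23 in epileptic sgKcna1 against control. With limma voom, epileptic sgKcna1 gave 0.0414 for Dcx against epileptic sgLacZ, and -0.37 for Sox11 and -0.22 for Mki67 against control. With strands summed, Neurod1 was 0.0393 and Eomes -0.33 in epileptic sgKcna1 against control. Leaving out 1 library gave ranges across 0 in epileptic sgLacZ against control for Igfbpl1 -0.12 to 0.23 and Mki67 -0.55 to 0.28, in epileptic sgKcna1 against epileptic sgLacZ for Dcx -0.18 to 0.10, Eomes -0.88 to 0.0378 and Mki67 -0.0963 to 0.59, and in epileptic sgKcna1 against control for Neurod1 -0.0946 to 0.00930, Eomes -0.48 to 0.57, Sox11 -0.33 to 0.55, Draxin -0.29 to 0.23 and Mki67 -0.33 to 0.54. With only the 2 groups compared, Eomes and Draxin gave no value in epileptic sgKcna1 against control, since both were filtered out. With 0 to 71 reads for Eomes, 0 to 35 for Draxin, 15 to 83 for Mki67 and 17 to 77 for Top2a, low counts and the spread between libraries of a group both limit the precision of these genes.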
